A study of Mus musculus with 2 samples.

Results

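ERK feedback genes are induced when the ERK kinases are active and then damp the pathway that induced them. The 10 genes described here were chosen by name from the 44291 genes measured: the MAP kinase phosphatases Dusp1, Dusp4, Dusp5 and Dusp6, the Sprouty genes Spry1, Spry2 and Spry4, the Spred genes Spred1 and Spred2, and Phlda1. All 10 were found, each in a single entry. RNA-seq was performed on wild-type mouse primary fibro-adipogenic progenitors (FAPs), mesenchymal cells of skeletal muscle that can become adipocytes. The cells received PRP (platelet-rich plasma) or vehicle, and both cultures were then kept in adipogenic induction medium. This medium held insulin at 10 μg/ml, IBMX, which raises cyclic AMP, at 0.5 mM, and the glucocorticoid dexamethasone at 0.25 μM, and FBS made up 20% of it. The labels name the treatment PRP, whereas the text of the study speaks of exosomes isolated from PRP of young donors. The study sorted FAPs by flow cytometry from hind limb muscle and worked with young adult C57BL/6 mice, but how many animals gave the cells of each library is not stated. There was 1 library per group, so no difference below has a replicate check and none was tested.

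In this pathway, a growth factor receptor recruits adaptor proteins that load the small GTPase RAS with GTP, and RAS then starts the kinase chain RAF, MEK and ERK. The dual-specificity phosphatases remove phosphate from MAP kinases: DUSP6 acts on ERK in the cytoplasm, DUSP5 on ERK in the nucleus, and the nuclear enzymes DUSP1 and DUSP4 on JNK and p38 as well. Sprouty and Spred proteins act higher up, between the receptor and RAF, and SPRED1 brings neurofibromin to the membrane to switch RAS off. PHLDA1 is a pleckstrin homology-like protein whose gene is a widely used readout of ERK activity. In FAPs and other mesenchymal cells, ERK signalling accompanies proliferation and is known to affect the course of adipogenesis.

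The phosphatases and Phlda1 were higher in the PRP library and Spred1 was lower, while the Sprouty genes and Spred2 lay nearer to equality. All 4 phosphatases were higher, with PRP to control ratios of FPKM (read numbers scaled for exon length and library size) from 1.34 to 2.95, and Phlda1 had a ratio of 2.80. The 3 Sprouty genes lay between 0.813 and 1.05. Spred1 was lower and Spred2 slightly higher, with ratios of 0.772 and 1.11. Each ratio is given with an exact Clopper-Pearson 95% interval worked out from the read numbers behind the FPKM values. These intervals cover counting error only and compare 2 libraries, not the treatments. The interval lay above 1 for 5 members and below 1 for 1, and included 1 for 4. Of all genes averaging 1 FPKM or more that had an interval, 26.1% lay above 1 and 26.1% below, so the count of members that left out 1 is close to the share of all genes. Mitochondrial genes took 2.06% of the summed FPKM with PRP and 3.70% in the control, and with libraries rescaled without these genes and the 50 most abundant ones the intervals of the same number of members, 6, left out 1. As these are bulk samples, fewer cells that express a gene and less of its RNA per cell cannot be told apart.

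**Figure D1:**
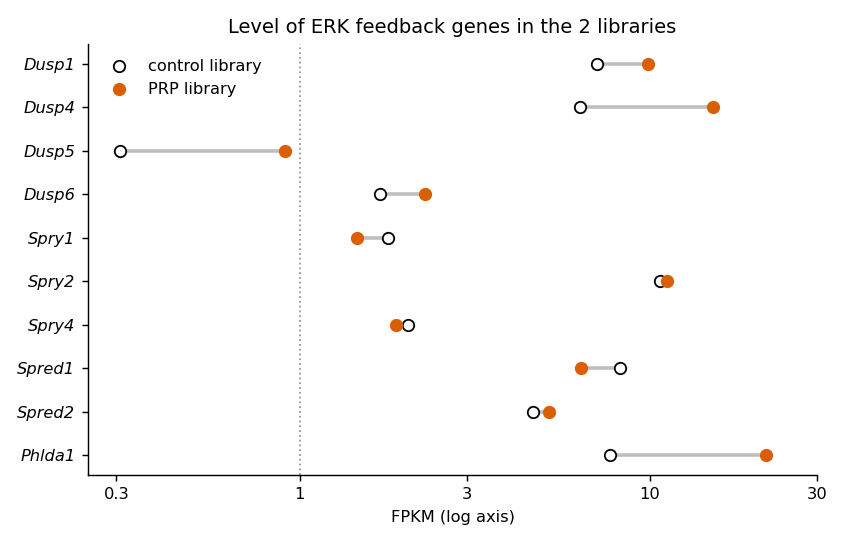
FPKM of the 10 ERK feedback genes (log axis) in the control library (open points) and the PRP library (filled points), 1 library each; the dotted line marks 1 FPKM. Dusp4 and Phlda1 have the widest gaps among members above that line, from 6.32 to 15.1 and from 7.68 to 21.5 FPKM, whereas the points of Spry2 nearly touch.

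Since this study asks what PRP does in adipogenic medium that holds an inducer of cyclic AMP signalling and a glucocorticoid, the promoters of members were searched for the sites of factors that answer these signals and ERK. Promoters of 7 members, running from 250 bases before to 50 bases after the start site, were matched in RefSeq (GRCm38.p6). Those of Dusp4, Spry4 and Phlda1 were not matched and so were not searched. The motifs were TGACGTCA (CRE, bound by CREB), TGANTCA (AP-1), CCGGAAG (ETS), the CArG box of serum response factor and the glucocorticoid response element, on both strands, and none of the motifs contains another. The promoters of the members that held a match are shown, with the match in capitals. Dusp1 lies at chr17:26508423-26508722 on the minus strand and Dusp5 at chr19:53528895-53529194 on the plus strand.
Dusp1: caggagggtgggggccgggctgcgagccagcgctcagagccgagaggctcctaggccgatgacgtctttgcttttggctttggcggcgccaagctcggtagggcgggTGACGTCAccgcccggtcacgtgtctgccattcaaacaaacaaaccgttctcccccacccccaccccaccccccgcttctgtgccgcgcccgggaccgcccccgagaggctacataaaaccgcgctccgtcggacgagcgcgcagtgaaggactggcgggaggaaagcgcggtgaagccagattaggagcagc
Dusp5: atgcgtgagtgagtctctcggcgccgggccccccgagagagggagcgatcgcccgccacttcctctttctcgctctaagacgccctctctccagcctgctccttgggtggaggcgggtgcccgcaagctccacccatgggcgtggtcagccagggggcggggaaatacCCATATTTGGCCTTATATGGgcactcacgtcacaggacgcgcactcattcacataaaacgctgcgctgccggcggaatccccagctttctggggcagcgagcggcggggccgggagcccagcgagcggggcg

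The Dusp1 promoter held 1 CRE, whose first base lay 143 bases before the start site, a motif found in 1.88% of 27025 promoters and in 3.28% of those of genes averaging 1 FPKM or more. The Dusp5 promoter held 2 CArG boxes side by side, CCATATTTGG from 82 and CCTTATATGG from 72 bases before the start site. A CArG box was present in 1.57% of all promoters and in 1.28% of those of genes averaging 1 FPKM or more. The windows of Dusp6, Spry1, Spry2, Spred1 and Spred2 held none of these letters. AP-1 and ETS motifs, present in 7.93% and 9.12% of all promoters, were found in none of the 7 member promoters searched. For the promoters of genes averaging 1 FPKM or more these shares were 4.77% and 19.8%. The glucocorticoid response element was searched only in its strict full form, with both arms exact. This form was found in 1 of all 27025 promoters and in none of these 7 member promoters. It is too rare for its absence to say whether members hold looser forms of the element, which were not searched. A match is a description of these letters and was not tested as a binding site.

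Dusp4 was the most abundant phosphatase with PRP and had the widest difference among those above 1 FPKM. Dusp4 (ENSMUSG00000031530, chromosome 8, 34807297 to 34819894, plus strand), which encodes an inducible nuclear phosphatase, was at 15.1 FPKM with PRP and at 6.32 FPKM in the control, from 1662 and 591 reads. This made a ratio of 2.39 (interval 2.09 to 2.74). Its FPKM exceeded that of 75.8% of the 13401 genes averaging 1 FPKM or more with PRP, but of 55.0% in the control. No other annotated exon overlaps it.

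Dusp1 (ENSMUSG00000024190, chromosome 17, 26505590 to 26562128, minus strand), an immediate early gene that stress, glucocorticoids and growth factors all induce, was at 9.90 FPKM with PRP and at 7.09 FPKM in the control. With 1315 and 801 reads, this ratio of 1.40 had an interval of 1.23 to 1.59. Its GENCODE span also reaches upstream of the RefSeq promoter shown above. In the control library Dusp1 was the highest of the 4 phosphatases, and in the PRP library Dusp4 was.

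Dusp6 (ENSMUSG00000019960, chromosome 10, 99263231 to 99267489, plus strand), the cytoplasmic ERK phosphatase, was low, at 2.28 FPKM with PRP and 1.69 FPKM without. The ratio of 1.34 came from 286 and 181 reads. Its interval of 1.03 to 1.77 only just left out no change, and started at 1.003 when the libraries were rescaled without mitochondrial genes and the 50 most abundant genes.

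Dusp5 (ENSMUSG00000034765, chromosome 19, 53529109 to 53542431, plus strand), the nuclear phosphatase particular to ERK, was at 0.907 FPKM with PRP and at 0.308 FPKM in the control. It was the lowest member in both libraries, and the only one with a mean FPKM below 1. With 90 and 26 reads, the ratio of 2.95 had the widest interval, from 1.56 to 5.95. The antisense gene AC137853.2 covers 22.1% of the Dusp5 exon length and had 1.06 against 0.222 FPKM.

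The differences of the phosphatases were unequal. Ratios between 2 genes within 1 library do not depend on how that library was scaled, so the 10 pairs of members of the same family were compared in this way. Dusp4 was 6.64 times Dusp6 with PRP and 3.73 times without, a ratio of ratios of 1.78 (interval 1.30 to 2.40). Dusp1 was at 0.655 of the Dusp4 FPKM with PRP and at 1.12 of it in the control, with a ratio of ratios of 0.584 (0.486 to 0.706). Dusp1 and Dusp6 differed by similar factors, with a ratio of ratios of 1.04, although the interval of 0.764 to 1.40 leaves room for sizeable differences. Dusp5 differed more than Dusp6, with a ratio of ratios of 2.19 (1.08 to 4.64), and Dusp1 less than Dusp5, at 0.474 (0.232 to 0.911). For Dusp4 over Dusp5 the interval was 0.396 to 1.56 and included 1. In all, 5 of the 10 pairs had an interval that left out 1, for counting error only.

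**Figure D2:**
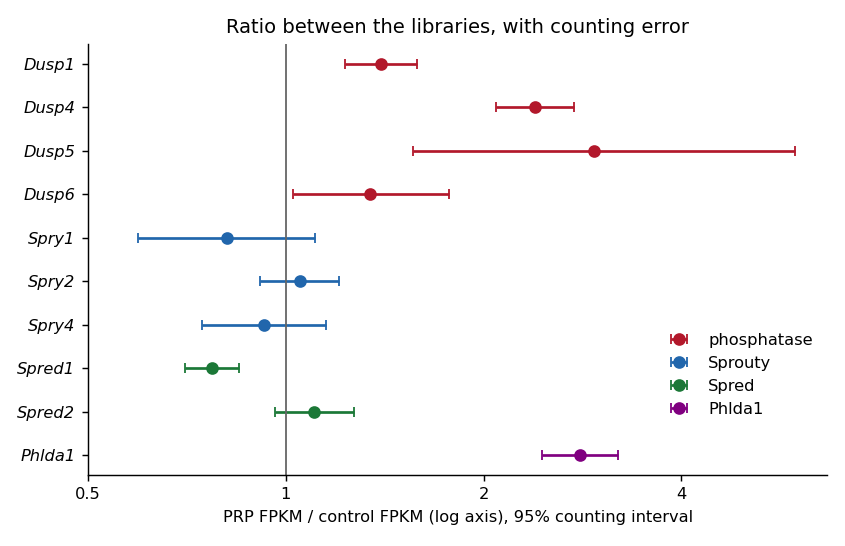
Ratio of PRP to control FPKM (log axis) for each of the 10 genes, coloured by family, with exact 95% intervals for counting error as bars and no change as the vertical line. The bars of the 4 phosphatases and Phlda1 lie to the right of the line, that of Spred1 (0.703 to 0.848) to the left, and those of Spry1, Spry2, Spry4 and Spred2 cross it.

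The Sprouty genes had ratios from 0.813 to 1.05 and were far apart in level. Spry2 (ENSMUSG00000022114, chromosome 14, 105891947 to 105896819, minus strand), an inhibitor of receptor tyrosine kinase signalling, was the highest, at 11.2 FPKM with PRP and 10.7 FPKM without. The ratio of these values was 1.05, and 940 and 762 reads gave an interval of 0.915 to 1.20. Spry2 was thus the highest of all 10 members in the control library and the third, behind Phlda1 and Dusp4, in the PRP library.

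Spry1 (ENSMUSG00000037211, chromosome 3, 37639947 to 37644598, plus strand), which also acts between the receptor and RAF, was at 1.46 FPKM with PRP and 1.79 FPKM without, a ratio of 0.813 (interval 0.597 to 1.11) from 170 and 178 reads. The antisense gene Gm42922, with 0.504 and 0.465 FPKM, covers 24.4% of its exon length. Spry4 (ENSMUSG00000024427, chromosome 18, 38586247 to 38601415, minus strand), a common readout of ERK activity, was at 1.89 FPKM with PRP and 2.04 FPKM without. The ratio of 0.925 came from 360 and 331 reads, with an interval of 0.745 to 1.15. At this depth no difference was detectable for any of the 3 Sprouty genes, and in none of their 3 pairs did the interval of the ratio of ratios leave out 1. These intervals leave room for sizeable differences, at 0.551 to 1.09 for Spry1 over Spry2 and 0.602 to 1.29 for Spry1 over Spry4. Summed over the family, the FPKM was 14.6 with PRP and 14.5 without, against 28.2 and 15.4 for the 4 phosphatases.

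The Spred genes differed from each other. Spred1 (ENSMUSG00000027351, chromosome 2, 117121374 to 117182279, plus strand), the partner of neurofibromin, was at 6.34 FPKM with PRP and at 8.21 FPKM in the control. Its ratio of 0.772 (interval 0.703 to 0.848) came from 1726 and 1902 reads, the highest read number of any member in the control library. Spred2 (ENSMUSG00000045671, chromosome 11, 19924375 to 20024026, plus strand) is known to inhibit RAF activation and was at 5.14 FPKM with PRP and 4.65 FPKM without, a ratio of 1.11 (interval 0.962 to 1.27). Spred1 was 1.23 times Spred2 with PRP and 1.77 times in the control, and the ratio of ratios was 0.699 (interval 0.590 to 0.825).

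Phlda1 (ENSMUSG00000020205, chromosome 10, 111506286 to 111508645, plus strand) was the highest member with PRP, at 21.5 FPKM against 7.68 FPKM without. This ratio of 2.80, from 1902 and 578 reads, had an interval of 2.45 to 3.21. The antisense gene Gm28592 covers 33.0% of the Phlda1 exon length, lies with 98.1% of its own exon length inside Phlda1, and was at 48.9 FPKM with PRP and 17.0 FPKM without. Its ratio of 2.89 (interval 2.47 to 3.38) was close to that of Phlda1. The libraries were stranded, but whether the counting used strand is not stated. To see this from the values, genes lying wholly inside exons of a gene averaging 10 FPKM or more were examined. All 45 such genes on the opposite strand had values above 0, at a median of 17.8% of the FPKM of the covering gene. Of 114 such genes on the same strand, 110 did, at a median of 15.0%. These values do not settle whether strand was used, since antisense RNA would also give values above 0. If it was not, reads from the shared exon length of Phlda1 and Gm28592 cannot be told apart, and the same holds for Dusp5 and Spry1 and their antisense partners.

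Placed among all genes, Dusp4 and Phlda1 were near the upper end. The log2 fold change is log2(PRP FPKM + 1) minus log2(control FPKM + 1), which understates the change of low genes, and was read for genes averaging 1 FPKM or more. Of the 10 members 9 passed this filter, and Dusp5 did not, with a log2 fold change of 0.54 that became 1.30 with a pseudocount of 0.1. Of these 9, 6 were higher in the PRP library, where 50.9% of all 13401 genes were. Phlda1 (1.37) and Dusp4 (1.14) were at least 2-fold higher, as were 2.00% of all genes, and lay above 99.2% and 98.6% of them. They were also the only members at least 1.5-fold higher, where the share of all genes was 6.15%. With Phlda1, Dusp5 and Spry1 left out for their antisense partners, 1 of 7 members was at least 2-fold higher. No member was lower by either fold, against 0.828% of all genes at 2-fold and 4.57% at 1.5-fold.

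Dusp1 (0.43) lay above 89.2% of all genes and Dusp6 (0.28) above 81.2%. Spred2 (0.12), Spry2 (0.06), Spry4 (-0.07) and Spry1 (-0.18) lay in the middle of the distribution, and Spred1 (-0.33) above 13.8% of all genes. The median of the 9 members was 0.12, against 0.01 for all genes. Of these 9 members, 4 had an interval above 1 and 1 an interval below 1, against 26.1% each of the 12369 genes with an interval.

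**Figure D3:**
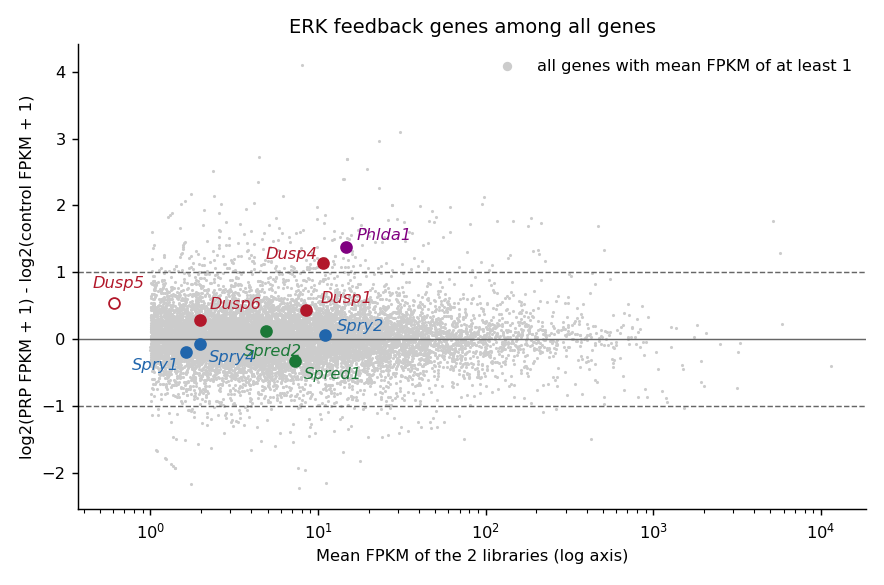
Log2 fold change against the mean FPKM of both libraries (log axis) for all 13401 genes averaging 1 FPKM or more (grey) and the ERK feedback genes (coloured by family, Dusp5 open since it lies under the filter); dashed lines mark 2-fold. Phlda1 and Dusp4 lie above the upper dashed line and the other members lie between the dashed lines.

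The relatives of the members were compared next. Dusp10, whose product acts on JNK and p38, was at 4.40 FPKM with PRP and 2.02 FPKM without, a ratio of 2.18 (interval 1.73 to 2.75). Dusp16, another phosphatase of JNK and p38, had 2.06 against 1.46 FPKM, a ratio of 1.41 (1.18 to 1.70). The cytoplasmic ERK phosphatase Dusp7 had 1.12 against 1.06 FPKM, and an interval that included 1. Dusp8 (0.583 against 0.571), Dusp9 (0.238 against 0.0861) and Dusp2 (0.0249 FPKM against a listed 0) were below the filter. The third Spred gene, Spred3, had 1.61 against 1.71 FPKM and an interval of 0.767 to 1.16, and Spry3 was not analysed here. Of the genes related to Phlda1, Phlda3 went the other way, with 33.0 against 39.3 FPKM (ratio 0.839, interval 0.769 to 0.915). Phlda2 had 6 reads in each library. The relatives thus held further phosphatases that were higher, but no higher Spred or PHLDA gene.

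The other genes of the cascade were set beside the feedback genes, where 6586 of all 13401 genes were lower in the PRP library. All 12 adaptor and RAS genes passed the filter, with 4 higher and 8 lower, a median log2 fold change of -0.11, and none past 1.5-fold. They ranged from the adaptor gene Shc1 (13.1 against 18.3 FPKM, ratio 0.719) to the RAS exchange factor gene Sos2 (2.68 against 2.04 FPKM, ratio 1.32). Of 13 kinase genes of the cascade 12 passed, with 5 higher and 7 lower and a median of -0.11, which was 0.000487 with a filter at 5 FPKM. Mapk3, which encodes ERK1, was at 13.7 FPKM with PRP and 24.0 FPKM without, a ratio of 0.572 (interval 0.516 to 0.634), the lowest of the kinases. The highest was Rps6ka2, a kinase gene of the RSK family downstream of ERK (3.08 against 2.33 FPKM, ratio 1.32). These are RNA levels and say nothing of the phosphorylation of the kinases.

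Other inhibitors of receptor and ERK signalling showed no common direction, with 3 higher and 4 lower of 7 that passed the filter and a median of -0.06. Errfi1, an inhibitor of the EGF receptor that ERK also induces, had the highest fold change, at 25.4 FPKM with PRP and 17.9 FPKM without, a ratio of 1.42 (interval 1.32 to 1.53). The adaptor gene Dok1 had the lowest, at 7.59 against 9.23 FPKM.

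Immediate early genes, the transcription factor genes and others that ERK and related signals switch on within minutes, were higher as a group. Of 13 listed genes 10 passed the filter, and 9 were higher and 1 was lower, with a median log2 fold change of 0.63, where 50.9% of all genes were higher and their median was 0.01. At least 2-fold higher were Fosl1, Atf3 and Ier3, of which the latter pair are named after their values were seen. Fosl1 had the highest, at 61.6 against 22.6 FPKM (ratio 2.72, interval 2.51 to 2.95), but shares 57.2% of its exon length with a gene on the opposite strand. Myc had 10.4 against 5.83 FPKM (ratio 1.79, interval 1.54 to 2.07), Fos 3.23 against 1.76 FPKM (ratio 1.84, interval 1.38 to 2.48) and Egr1 4.48 against 3.08 FPKM (ratio 1.45, interval 1.23 to 1.71). Fosl2 was the exception, with 10.8 against 13.2 FPKM.

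Of 9 genes for ETS factors and serum response factor, through which ERK acts on promoters, 7 passed the filter, 5 higher and 2 lower, with a median of 0.30. Ets1 had the highest fold change (11.0 against 7.36 FPKM, ratio 1.49) and Elk3 the lowest (4.87 against 5.99 FPKM). Etv5, another common readout of ERK, had 2.01 against 1.46 FPKM (ratio 1.37, interval 1.07 to 1.78). Etv4, another such readout, was below the filter, at 0.899 against 0.472 FPKM (ratio 1.91, interval 1.17 to 3.19). Etv1, named after its values were seen, was also below the filter, at 0.214 against 0.258 FPKM (ratio 0.829, interval 0.565 to 1.22).

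Since dexamethasone and IBMX were present in both cultures and Dusp1 answers to both, their target genes were set beside it. All 6 glucocorticoid targets passed the filter, 2 higher and 4 lower, with a median of -0.14. They ranged from Fkbp5 (7.62 against 12.4 FPKM, ratio 0.614, interval 0.574 to 0.658) to the kinase gene Sgk1 (11.5 against 7.90 FPKM, ratio 1.45, interval 1.32 to 1.60). Of 7 targets of cyclic AMP only 3 passed, 2 higher and 1 lower, with a median of 0.29. Nr4a2 was the highest (2.52 against 1.31 FPKM) and Crem the lowest (0.964 against 1.12 FPKM). The part of either signal in the Dusp1 value was not tested.

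**Figure D4:**
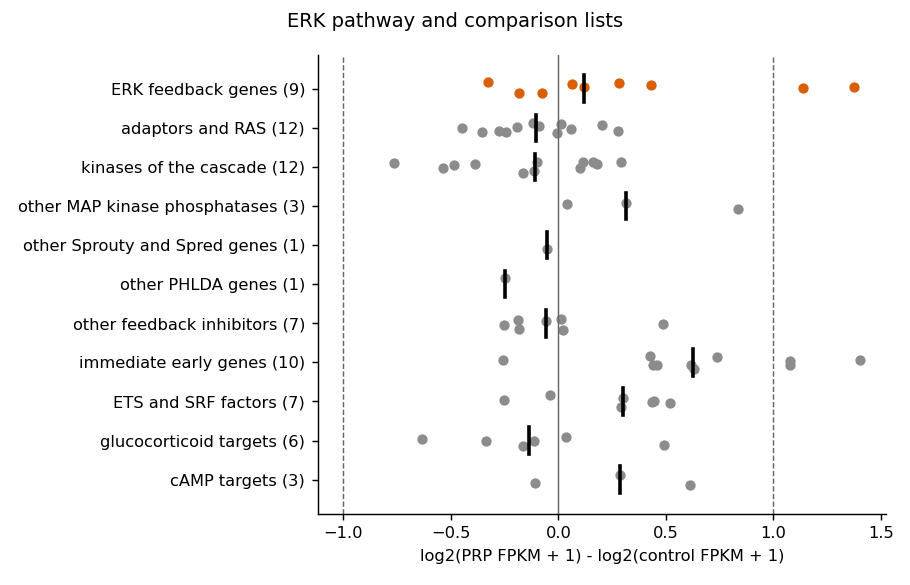
Log2 fold change of the genes in each list that averaged 1 FPKM or more (points, number of genes in brackets), with the list median as a black bar; dashed lines mark 2-fold. Immediate early genes (median 0.63) lie furthest to the right, and the ERK feedback genes (median 0.12) spread from -0.33 to 1.37.

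As the study names let-7f and miR-16 as the cargo that acts on FAPs, the 3′ untranslated regions of the members in GENCODE M21 were searched for matches to bases 2 to 8 of these microRNAs, shown in capitals in the mature mouse sequences from RefSeq.
mmu-let-7f-5p: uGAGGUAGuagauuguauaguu
mmu-miR-16-5p: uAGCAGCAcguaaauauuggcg

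No member had the let-7 match CTACCTC, which 9.86% of 10292 genes averaging 1 FPKM or more carried. The miR-16 match TGCTGCT, carried by 24.6% of these genes, was present in 2 of the 10 members, once in Spred1 and 2 times in Spry4, whose untranslated regions are the longest of the members at 4330 and 3559 bases. The Spred1 match lies at chr2:117180186-117180207 on the plus strand (GRCm38) and is shown as the 1 member with both a match and an interval below 1.
Spred1: ttgtttaaccacttTGCTGCTa

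A match of this kind is no evidence that the RNA is bound. Spry4, with 2 matches, had an interval that included 1 (0.745 to 1.15). The part of either microRNA in the values of the members was not tested.

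The labelled cell type was checked with marker genes. All 7 FAP markers passed the filter, with a summed level of 256 FPKM with PRP and 431 FPKM without. All 7 had an interval below 1, among them Pdgfra (19.8 against 28.0 FPKM) and Dpt (18.8 against 50.2 FPKM). Markers of other cells were low, and 1 of 3 passed the filter for endothelial cells, leukocytes and mural cells each, with none for platelets and myogenic cells. Pax7 and Ppbp were listed at 0 in both libraries, and Ptprc, Adgre1, Cdh5, Myod1, Pf4 and Kcnj8 did not exceed 0.0976 FPKM, while Myf5 was not analysed here. Pecam1, the gene of the endothelial marker CD31, was at 0.188 against 0.0470 FPKM (interval of the ratio 1.49 to 13.4). The summed endothelial markers had 4.51 against 1.64 FPKM, mostly from Kdr, and the leukocyte markers 4.60 against 2.38 FPKM, nearly all from Cd68, while the platelet markers had 0.636 against 0.365 FPKM and the mural markers 1.26 against 1.40 FPKM. The part of these shifts in the values of the feedback genes was not tested.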

How the data were processed

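RNA-seq was performed on 2 libraries of mouse FAPs, 1 per group, grouped by their labels. Per the labels, TRIzol was used for RNA extraction and a stranded kit for the mRNA libraries. The submitters' processing notes name fastp 0.23.4, STAR 2.5.3a, featureCounts and the mm10 build. The authors deposited FPKM values per gene, which are used as given. The annotation release, the formula and the strand setting of the counting are not given in the sources used here.

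With exon lengths of GENCODE M21 (GRCm38), 93.6% of the 22777 genes above 0 in both libraries gave whole reads in both, within 0.001 reads, including all 10 members. The totals of assigned reads were 40120843 (PRP) and 34139741 (control). Even read numbers made up 79.3% and 80.3% of the genes with up to 8 reads, as when mates are counted separately, so intervals used read numbers divided by 2. Recovered reads served for intervals alone, which take no account of PCR duplicates. For pairs of members, the interval is the exact conditional one of the odds ratio.

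Fold changes used a pseudocount of 1 and a mean FPKM of at least 1. No p-value was computed, since there is no replicate. The members and lists were chosen with earlier results of these data known. All members were named, with the highest and lowest gene of each list, all near relatives and 8 known kinases and readouts, of which 1 is not reported here. The check on strand was chosen after seeing the data. Alternatives were other pseudocounts, filters, rescaling, centring and a 1.5-fold threshold. Python 3.11.15, NumPy 2.4.6, pandas 2.3.3, SciPy 1.17.1 and matplotlib 3.10.9 were used. The recovery of reads and the intervals of single genes were tested on simulated data, and the other procedures were not.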

Additional observations from a re-analysis of the deposited data

How the results depend on the processing

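The sign of the log2 fold change of each of the 10 members was the same in all settings that gave a value. Other pseudocounts (0.1 or 5) and filters (none or 5 FPKM) cannot change a sign. The 2 rescalings changed ratios by factors of 0.989 and 0.978, and centring took 0.00653 off each log2 fold change. These shifts were smaller than the difference of any member, so the kept signs are no check on the values. Over these settings Phlda1 ranged from 1.06 to 1.47, Dusp4 from 0.83 to 1.25, Dusp1 from 0.30 to 0.48, Dusp6 from 0.12 to 0.41, Dusp5 from 0.15 to 1.30, Spry1 from -0.29 to -0.07 and Spred1 from -0.39 to -0.22. The number of members at least 2-fold higher was 2, but 1 (Phlda1) with a pseudocount of 5, and 1 (Dusp4) without the members that share exons with an antisense gene, a setting chosen after seeing the data. The median of the members was 0.12, but 0.43 with a filter at 5 FPKM, which left 5 members, 0.20 with no filter and 0.07 with a pseudocount of 5. The number of members whose interval left out no change was 6, and 7 with read numbers as they are, where Spred2 was added. It was 6 under either rescaling, also chosen after seeing the data. The number of all genes at least 2-fold higher was 268, but 471 and 84 with pseudocounts of 0.1 and 5, 154 with a filter at 5 FPKM and 824 at 1.5-fold. It was 380 when rescaled to a common sum and 391 when rescaled without mitochondrial and top genes. The number at least 2-fold lower was 111, but 268 and 29 with these pseudocounts, 56 with the filter at 5 FPKM, 612 at 1.5-fold, 216 when rescaled to a common sum and 247 when rescaled without mitochondrial and top genes. Either rescaling also raised the values of both libraries while the pseudocount stayed at 1. The pseudocount thus weighed less, as with 0.1, and both numbers rose. These rises are therefore no measure of the scaling between the libraries, which differed by factors of only 0.989 and 0.978. No paired analysis was possible because no group holds more than 1 library. The depth limits Dusp5, Dusp6 and Spry1 most, with fewer than 300 reads in each library.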
